A study of Mus musculus with 8 samples.

Results

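Endosomal sorting, SNARE and Rab genes are described here as they were translated in mouse liver. They were taken as every line of the deposited ribosome profiling table whose gene symbol begins with Rab, Vps, Snx, Stx, Vamp, Chmp or Snap and a number, or with Ap, a number from 1 to 4 and a letter. The rule uses names only, and it found 105 of the 7500 genes of the table, or 1.40%. By symbol these were 28 Rab, 21 Vps, 19 Snx, 7 Stx, 4 Vamp, 5 Chmp, 19 Ap and 2 Snap genes. Of the 28 Rab symbols, 22 name Rab GTPases and 6 name proteins that regulate or bind them. Genes of the same families that had no line, among them Rab5a, Rab11b, Vps35, Ap2b1 and Vamp2, were not analysed here.

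Ribosome profiling sequences the short mRNA fragments that a translating ribosome shields from nuclease, so that the fragments on a coding sequence, or footprints, count the ribosomes on it. The livers came from male FVB/N mice, an inbred strain, placed at weaning on a diet with no selenium added (0 ppm, the 0 Se group) or on that diet plus sodium selenite at 0.1 ppm selenium (the 0.1 Se group), and kept on it for 6 weeks. Each diet had 2 mice and 4 libraries, and all 8 libraries were of whole liver. The study compared the diets, but the values used here are 1 average per gene over all libraries of both diets. No value belongs to a mouse or a diet, no SD or n can be given, and the diets are not compared.

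The level of a gene is this average, in log2 CPM, where CPM stands for footprints counted per 1000000. Because a longer coding sequence holds more ribosomes at the same rate of translation, genes were ranked and set against each other by footprint density, the CPM divided by the coding length in kilobases. Density holds both the amount of an mRNA and the number of ribosomes on each copy, and these were not separated here. The lowest values of the table lie on steps of 0.0661 CPM, which is what 1 read is worth, and this gave a pooled depth of about 15126305 reads. The deposited averages include a small count that the authors' tool adds to each gene. Densities keep it, whereas reads and ratios of reads per length have 8 counts subtracted, as inferred for 4 joined libraries, so that these ratios are larger than those of densities where a gene has few reads. Every interval below is a 95% interval for the counting of these reads alone. It does not cover the spread between mice, and footprints copied by PCR are not independent molecules.

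The tissue matched its label. The 5 hepatocyte markers that had a line took 13.2% of all footprints counted, and Alb, which encodes albumin, stood at a log2 CPM of 16.48. Markers of other liver cells were also found. Clec4f of Kupffer cells, the resident macrophages, had a log2 CPM of 8.09, Stab2 of sinusoidal endothelium 7.27 and Dcn of stellate cells 7.71. Each was the highest of its list, and the lists were uneven. Their lowest markers with a line were Marco at 2.88, Pecam1 at 3.73 and Des at 1.78, in the same order of cells. Bile duct cells had 0.99 for Krt19, 0.72 for Krt7 and 2.06 for Sox9. In such a bulk tissue a gene used strongly in a few cells and one used weakly in many cannot be told apart, nor can fewer cells of a type and less RNA per cell.

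Membrane proteins and ligands that a hepatocyte takes up reach early endosomes, from which they are recycled to the surface, sent back to the Golgi or passed on to lysosomes. Rab GTPases mark each membrane while they hold GTP and recruit tethers and motors to it. AP adaptor complexes and sorting nexins gather cargo into vesicles and tubules, retromer recycles cargo out of endosomes, ESCRT complexes bend receptors marked with ubiquitin into vesicles inside the endosome, tethers such as HOPS and GARP hold a vesicle at its target, and SNAREs zip the membranes together. The hepatocyte is known for heavy traffic of this kind, since it secretes most plasma proteins and clears lipoproteins and glycoproteins from the blood.

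All 22 Rab GTPases of the table share the P-loop, the stretch that wraps around the phosphates of the bound nucleotide. It is encoded by 24 bases that spell glycine, 4 free residues, glycine, lysine and serine or threonine. No 2 of the 22 coding stretches were alike, so that footprints over this shared protein motif can differ in sequence between genes. The stretches of 9 GTPases whose densities are set against each other below are shown here from 5′ to 3′ on the coding strand, read from GENCODE M1 transcripts and matched to the mm9 genome, with the codons for the last glycine, lysine and serine or threonine in capitals.
Rab1 (chr11:20115661-20115684, plus strand): ggcgattctggggttGGAAAGTCC
Rab1b (chr19:5105199-5105222, minus strand): ggtgactccggcgtgGGCAAGTCG
Rab10 (chr12:3309350-3309373, minus strand): ggggactcgggagtgGGCAAGACC
Rab13 (chr3:90024863-90024886, plus strand): ggggactcgggggtgGGCAAGACT
Rab8b (chr9:66767375-66767398, minus strand): ggcgactccggcgttGGCAAGACC
Rab3a (chr8:73279839-73279862, plus strand): gggaacagcagcgtgGGCAAAACC
Rab3d (chr9:21720269-21720292, minus strand): gggaacagcagcgtgGGCAAGACA
Rab5c (chr11:100581290-100581313, minus strand): ggcgagtctgccgtgGGCAAGTCC
Rab11a (chr9:64576202-64576225, minus strand): ggagattctggtgttGGAAAGAGT

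The stretches of Rab10 and Rab13 differed at 2 bases, as did those of Rab3a and Rab3d, and those of Rab10 and Rab8b at 4. The products of the 22 genes ran from 194 to 259 residues. At their ends, where the lipid anchor is attached, 7 had a pair of cysteines as the last residues, 6 had a cysteine on either side of another residue, and 6 had a cysteine followed by 3 residues.

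Footprints are about as long as a window of 30 bases, and the authors kept reads that matched a unique place with up to 2 mismatches. Of the 103 genes found by symbol in GENCODE M1, 69 had no 30-base coding window within 2 mismatches of another gene. In 26 genes up to 5% of the windows had such a match, and in 8 genes more than 5%, the highest share being 13.1% in Rab3a. Rab1b stood at 10.6%, Rab3d at 10.3%, Rab1 at 9.64%, Ap2a2 at 9.53%, Ap2a1 at 9.14%, Ap1m1 at 6.76% and Rab4b at 5.43%. Shared windows of some of these genes are shown because they mark where a read could not be assigned, with any mismatched base in capitals. Those of Rab1 with Rab10 and of Rab3a with Rab3d cross an exon boundary and so have no single genome interval.
Rab1 and Rab10, identical: atcaagctacagatatgggacacagcaggc
Rab1b (chr19:5100751-5100780, minus strand) and Rab1, identical: aaacagtggctgcaggagatagatcgctac
Ap2a2 (chr7:148798544-148798573, plus strand) and Ap2a1 (chr7:52161804-52161833, minus strand), identical: gtccgcgcctgcaaccagctgggccagttc
Rab3a: gacaagaggatcaagctgcagatCtgggac
Rab3d: gacaagaggatcaagctgcagatTtgggac

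As a whole the 105 genes were translated at ordinary levels for this table. Their median level was a log2 CPM of 4.28, against 3.95 for all 7500 genes, and 56 of them lay above the median of all genes. Their median density was 13.9 CPM per kilobase, against 11.3 for all genes, and 57 lay above that median. The top 25% of all genes by density began at 37.5 CPM per kilobase and held 30 of the 105, and the bottom 25% ended at 3.80 and held 15. Together they took 0.34% of all footprints counted. The reads behind a gene ran from 14 for Ap1s3 to 2652 for Ap1b1, with a median of 287.

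The 5 genes of highest density were a sorting nexin, a SNARE and 3 Rab GTPases. Snx3 (chr10:42221837-42255176, plus strand), which guides retromer to cargo such as the Wnt carrier Wntless, had 249 CPM per kilobase (237 to 262). Vamp8 (chr6:72335217-72340697, minus strand), the SNARE of late endosomes, lysosomes and secretory granules, had 212 (197 to 227). Rab1 (chr11:20101605-20126859, plus strand) and Rab1b (chr19:5099207-5107019, minus strand), which act between endoplasmic reticulum and Golgi, had 186 (177 to 195) and 173 (164 to 182), and Rab14 (chr2:35035725-35056640, minus strand), a GTPase of early endosomes and the Golgi, had 144 (137 to 153).

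At the other end, Snx25 (chr8:47118615-47209500, minus strand), a nexin with an RGS domain, had 0.856 CPM per kilobase (0.627 to 1.17) from 24 reads. Rab11fip4 (chr11:79404714-79511525, plus strand), a Rab11 effector, had 1.86 (1.43 to 2.40), Rab34 (chr11:78001932-78005690, plus strand), a GTPase that positions lysosomes, 2.39 (1.71 to 3.35), Rab3il1 (chr19:10092683-10109946, plus strand), an exchange factor for Rab3, 2.49 (1.86 to 3.29), and Rab11fip1 (chr8:28249245-28285120, minus strand), another Rab11 effector, 2.54 (2.14 to 2.99). The counting intervals of the 5 highest and the 5 lowest genes lay far apart, which is no test, since density itself was used to pick them. Between them the order was mostly gradual: of the 104 neighbouring pairs in density order, 12 had a ratio of reads per length whose 95% interval excluded 1, and in the other 92 it included 1.

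**Figure D1:**
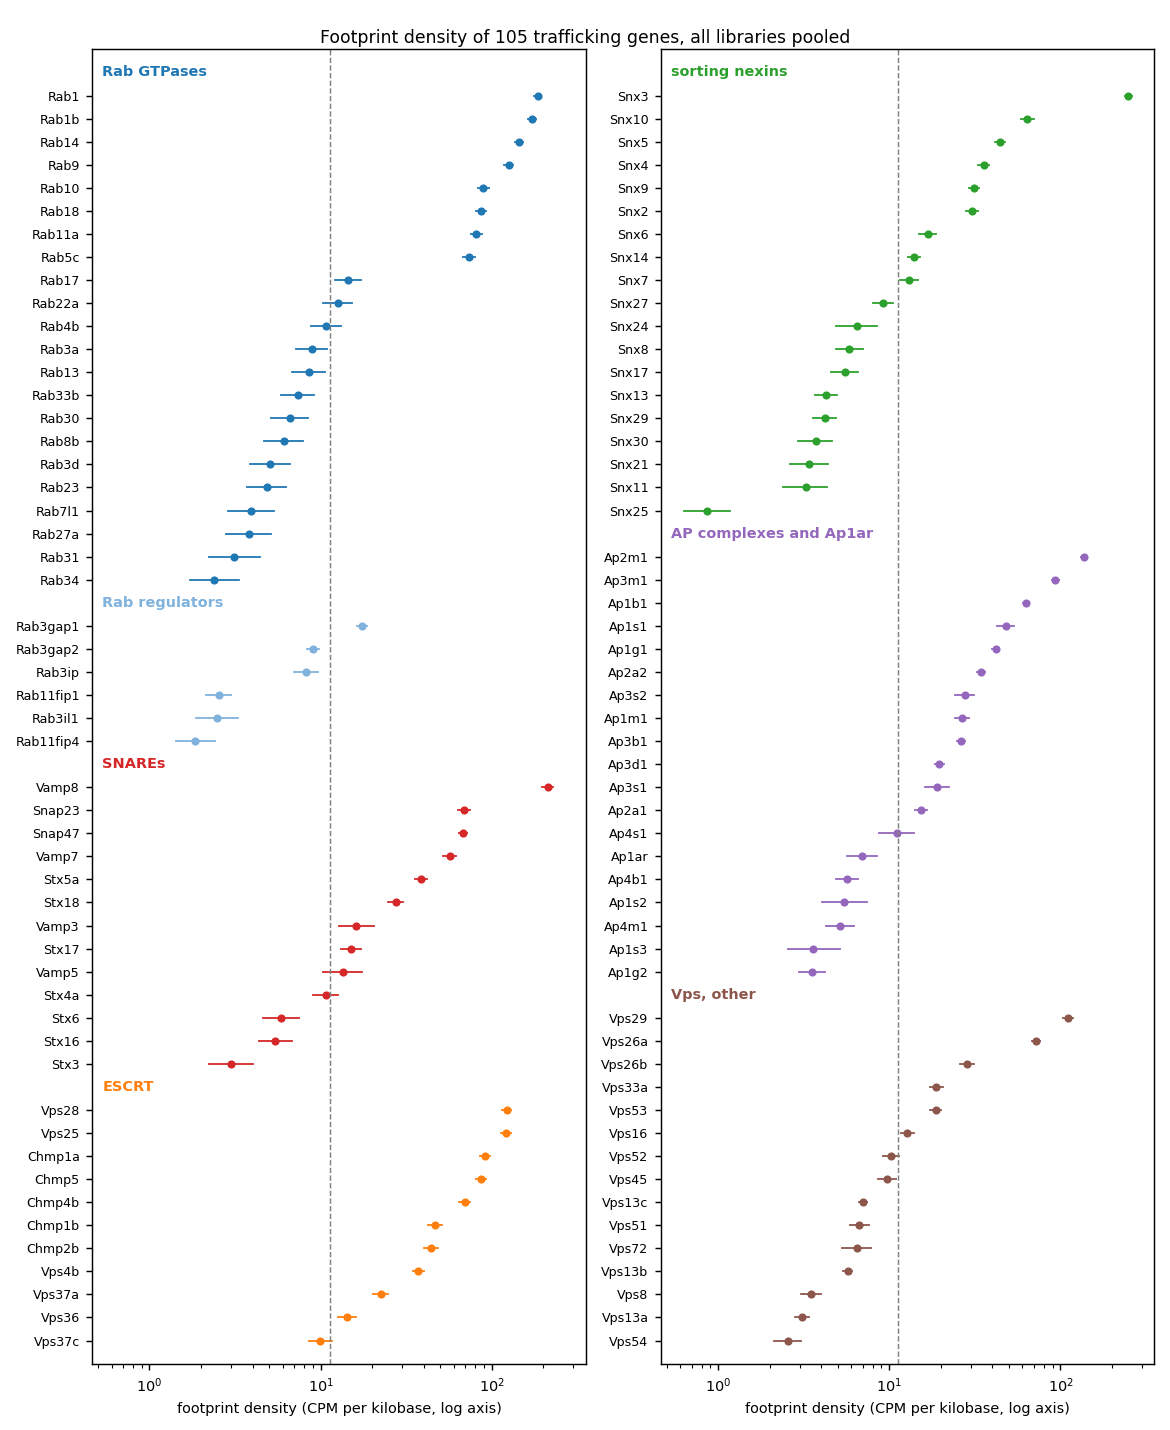
Footprint density (CPM per kilobase of coding length, log axis) of each of the 105 genes, grouped by family and ordered within it, over all libraries pooled. Points are densities, bars are 95% counting intervals, and the dashed line is the median of all 7500 genes, 11.3. The Rab GTPases with a line, 22 of 64 symbols listed, break into 8 genes at 73.6 or more and 14 at 14.5 or less.

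The Rab GTPases with a line, 22 of the 64 symbols listed for them, fell on either side of a wide gap. A gene without a line need not be low, so whether the whole family shows this gap was not tested. The median of the 22 was 9.87 CPM per kilobase, 8 of them were in the top 25% of all genes, and none lay between Rab5c at 73.6 (68.1 to 79.4) and Rab17 at 14.5 (12.1 to 17.1). Their coding lengths ran from 525 to 720 bases, with 591 for Rab5c and 585 for Rab17. The 8 on the upper side came from 4 of the groups by place of action.

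On the route between endoplasmic reticulum and Golgi, 5 of 17 GTPases listed had a line and their median was 86.6 CPM per kilobase. Rab1, Rab1b and Rab18, the last a GTPase of the endoplasmic reticulum and of lipid droplets with 86.6 (80.5 to 93.1), stood above Rab33b at 7.33 (5.83 to 9.18) and Rab30 at 6.60 (5.09 to 8.44), both of the Golgi. Rab1 and Rab1b, near-identical proteins, gave 1559 and 1417 reads, a ratio per length of 1.08 (1.001 to 1.16). The shares of windows matching another gene were those given above, and the ratio was not corrected for them.

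Among the 5 GTPases of early endosomes and fast recycling with a line, of 9 listed, the median was 12.6. Rab14 and Rab5c, a driver of early endosome fusion, were followed by Rab22a at 12.6 (10.3 to 15.2), Rab4b, which returns receptors quickly to the surface, at 10.8 (8.82 to 13.1) and Rab31 at 3.14 (2.24 to 4.41) from 17 reads. Rab22a and Rab31 are close relatives, and Rab22a had 5.44 (3.22 to 9.74) times the reads per length of Rab31, or 9.39 times with the counts of 8 libraries subtracted. Rab14 had 14.5 (11.7 to 18.3) times those of Rab4b.

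Late endosome and lysosome GTPases had 3 lines of 12 symbols listed. Among them Rab9, which serves transport from late endosomes to the Golgi, had 126 CPM per kilobase (118 to 134). Rab7l1, also known as Rab29, and Rab34 had 3.92 (2.88 to 5.35) and 2.39, from 25 and 18 reads. Of these 3 genes, 1 was in the top 25% of all genes and 1 in the bottom 25%.

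Recycling endosomes and polarised delivery were represented by 5 GTPases with a line, of 10 listed, with a median of 14.5. Rab10, which brings membrane proteins to the surface and shapes tubules of the endoplasmic reticulum, had 89.1 (82.8 to 95.8) and Rab11a, the GTPase that defines recycling endosomes, had 81.3 (75.4 to 87.3). Rab17, known from transcytosis in epithelial cells, had 14.5, Rab13 of tight junctions 8.55 (6.79 to 10.7) and Rab8b 6.08 (4.69 to 7.86). Rab10, Rab13 and Rab8b belong to 1 branch of the family, and Rab10 gave 11.6 (8.97 to 15.3) times the reads per length of Rab13 and 17.1 (12.6 to 23.7) times those of Rab8b.

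The 3 GTPases of regulated secretion with a line, of 8 listed, were all below the median of all genes. Rab3a, known from synaptic vesicles, had 8.92 (7.15 to 10.9), Rab3d of secretory granules 5.07 (3.84 to 6.63) and Rab27a, which docks lysosome-related organelles, 3.82 (2.81 to 5.16). The ratio of Rab3a to Rab3d was 1.91 (1.27 to 2.91), with 73 and 38 reads, and these 2 genes had the first and the third highest shares of windows matching another gene. Rab23, a GTPase of the primary cilium that was kept apart from these groups, had 4.87 (3.70 to 6.31).

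Regulators and effectors with Rab in their symbol had 6 lines of 9 symbols listed. Their median was 5.40 CPM per kilobase and 1 of them lay above the median of all genes. That was Rab3gap1 at 17.4 (16.2 to 18.7), the catalytic subunit of the Rab3 GTPase-activating complex, which also activates Rab18. Its partner Rab3gap2 had 9.06 (8.34 to 9.84), so that the subunits differed by 1.93 (1.73 to 2.16) times per length, and Rab3ip, an exchange factor for Rab8, had 8.25 (7.02 to 9.62).

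Other genes of the Rab cycle, whose names fall outside the rule, covered a like range. Of 16 symbols, 9 had a line, with a median of 12.1. Gdi2, which draws Rab proteins off membranes and keeps them soluble, had 216 CPM per kilobase, above every Rab GTPase of the table, and Rabac1, which binds prenylated Rabs, had 113. Rin3, an exchange factor of early endosomes, had the lowest density, 2.70.

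The 13 SNAREs with a line, of 29 listed, had a median of 16.2 CPM per kilobase and 9 of them lay above the median of all genes. Vamp8, one of the VAMPs or R-SNAREs that are carried mostly on vesicles, led them with 212. Among the other VAMPs, Vamp7, of late endosomes and lysosomes, had 56.9 (52.1 to 62.0), Vamp3, of recycling endosomes, 16.2 (12.7 to 20.6) and Vamp5, known from muscle, 13.5 (10.4 to 17.5). Vamp8 gave 3.74 (3.34 to 4.19) times the reads per length of Vamp7 and 14.8 (11.2 to 19.9) times those of Vamp3. Vamp3 and Vamp5, from 54 and 43 reads, could not be separated (ratio 1.24, 0.816 to 1.90).

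Vamp8, Vamp5 and Vamp3 were also among the shortest coding sequences, at 246, 249 and 252 bases. The 60 bases that the deposited length leaves out were 19.6% of the coding sequence of Vamp8. Over the 105 genes length and density had a Spearman correlation of -0.32, and over all 7500 genes -0.45, as a description across genes that are not independent replicates. Length and level had 0.22 and 0.01.

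SNAP proteins, which each supply a pair of helices to a SNARE bundle, had 2 lines of 4 symbols listed, and these were close in density. Snap23, the SNAP of most non-neuronal cells, had 68.7 (63.5 to 74.3) and Snap47 68.0 (64.3 to 71.9), a ratio of reads per length of 1.0 (0.910 to 1.11). The coding lengths were 606 bases for Snap23 and 1182 for Snap47.

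The 7 syntaxins with a line, Q-SNAREs of target membranes, had a median of 10.7, against 36.6 for the 4 VAMPs with a line. On the endoplasmic reticulum and Golgi, Stx5a had 38.7 (35.7 to 42.0) and Stx18 27.5 (24.9 to 30.3), the highest of the syntaxins. Of those on endosomes, lysosomes and autophagosomes, Stx17, which fuses autophagosomes with lysosomes, had 15.1 (13.1 to 17.3), Stx6 5.90 (4.62 to 7.43) and Stx16 5.43 (4.36 to 6.76). Stx6 and Stx16, which work in 1 complex at the trans-Golgi network, differed by 1.05 times (0.724 to 1.52) and were not separated. At the plasma membrane, Stx4a, a partner of Snap23, had 10.7 (8.99 to 12.6) and Stx3, of the apical surface, 3.01 (2.24 to 4.05).

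SNARE partners named outside the rule had 12 lines of 21 symbols and a median of 26.1. Bet1l, a Golgi SNARE, had the highest density, 119, followed by Sec22b at 79.7 and Napa, the alpha-SNAP adaptor that helps to take used SNARE bundles apart, at 72.1. Nsf, the ATPase that does so, had 13.2.

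Of the AP complexes, AP-4 had the lowest median density. AP-2, the adaptor of endocytosis at the plasma membrane, had a median of 34.5 CPM per kilobase over 3 genes with a line, of 5 listed. AP-1 of the trans-Golgi network and endosomes had 26.6 over 7 of 8, and AP-3 of the route to lysosomes 26.4 over 5 of 7. AP-4, which exports the autophagy protein Atg9 from the trans-Golgi network, had 5.68 over 3 of 4. None of the AP-4 genes with a line lay above the median of all genes, and all genes of AP-2 and AP-3 with a line did.

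An AP complex holds 1 copy each of 2 large subunits, a mu subunit and a sigma subunit. The densities of its places were set side by side after adding the paralogs with a line that fill the same place. Paralogs and places without a line could not be included. Sums and spans, here and in the complexes below, may therefore be incomplete. In AP-1 the beta subunit Ap1b1 had 62.8 (60.4 to 65.2), the sigma subunits together 56.9, the gamma subunits 45.4 and the mu subunit Ap1m1 26.6 (24.3 to 29.1), so that the highest and lowest place differed by 2.36 (2.14 to 2.60) times. Of each place with several paralogs, 1 carried most of the density. Ap1g1 had 41.9 (39.8 to 44.0) against 3.55 (2.96 to 4.2) for Ap1g2, a ratio of reads per length of 12.6 (10.4 to 15.3). Ap1s1 had 47.9 (42.7 to 53.5), 11 (7.44 to 17) times Ap1s2 and 20.4 (12.0 to 37.8) times Ap1s3 in reads per length, while the ratio of the densities of Ap1s1 and Ap1s3 was 13.3. Had the counts of 8 libraries been subtracted, Ap1s3 would have 6 reads and that ratio would be 46.3. Ap1s2 and Ap1s3, from 27 and 14 reads, had a ratio of 1.85 (0.935 to 3.81), or 3.03 (1.16 to 9.28) with the counts of 8 libraries subtracted.

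In AP-2 the mu subunit Ap2m1, which binds the tyrosine sorting signals of receptors, had 137 (132 to 142), 2.75 (2.60 to 2.92) times the 49.8 of both alpha subunits. Ap2a2 had 34.5 (32.7 to 36.3) and Ap2a1 15.3 (14.2 to 16.5), a ratio of 2.27 (2.07 to 2.49), and about 9% of the windows of each matched another gene. Ap2m1 also exceeded the mu subunit of AP-1 by 5.21 (4.73 to 5.76) times in reads per length.

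In AP-3 the mu subunit Ap3m1 again stood highest, with 93.2 (88.8 to 97.7), followed by the sigma subunits with 46.6, Ap3b1 with 26.4 (25 to 27.9) and Ap3d1 with 19.5 (18.4 to 20.8), a span of 4.77 (4.41 to 5.15) times. Ap3s2 and Ap3s1, of equal length, had a ratio of 1.48 (1.19 to 1.84). In AP-4 the sigma subunit Ap4s1 had 11.1 (8.71 to 14), Ap4b1 5.68 (4.90 to 6.53) and Ap4m1 5.17 (4.26 to 6.25). The places of AP-4 with a line spanned 2.14 (1.51 to 3.02) times. Ap1ar, which regulates AP-1 from outside the complex, had 6.95 (5.64 to 8.50).

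**Figure D2:**
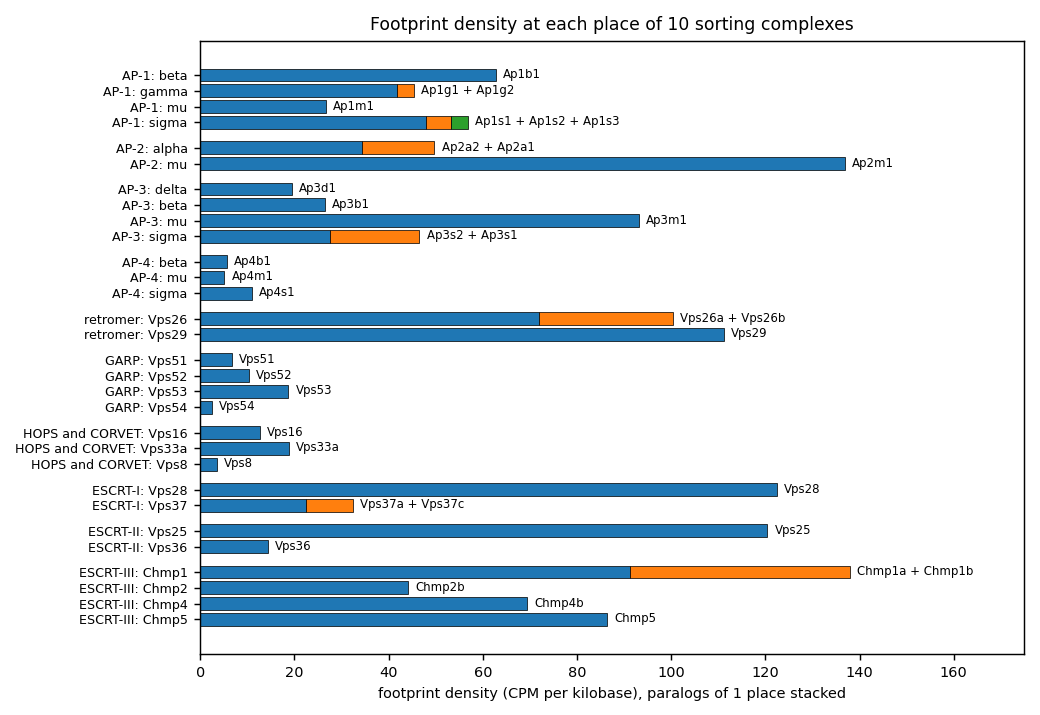
Footprint density (CPM per kilobase) at each place of 10 sorting complexes, over all libraries pooled. Each bar is a place, its parts are the paralogs with a line that can fill it, and bars start at 0. Places and paralogs without a line are not drawn. Places of retromer stand at 100 and 111, whereas those of ESCRT-II stand at 120 and 14.3.

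Retromer, the core that recycles cargo from endosomes, had densities within 1.11 times of each other at the 2 places that had a line. Its small subunit Vps29 had 111 (104 to 119), and Vps26a with 72.0 (67.9 to 76.4) and Vps26b with 28.4 (25.8 to 31.3) came to 100 together, a ratio of 1.11 (1.02 to 1.21). Vps26a gave 2.56 (2.29 to 2.88) times the reads per length of Vps26b. The nexins that tubulate membrane beside retromer were lower, with Snx5 at 44.4 (41.3 to 47.6), Snx2 at 30.5 (28.2 to 32.8) and Snx6 at 16.8 (15 to 18.8). Snx5 exceeded Snx6, its closest relative, by 2.69 (2.34 to 3.09) times in reads per length.

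Over the 19 sorting nexins with a line, of 30 listed, the median density was 9.17 CPM per kilobase. Of these, 9 lay above the median of all genes, with 3 in the top 25% and 4 in the bottom 25%. Snx3, of the cargo adaptors, had 28.1 (24.3 to 32.7) times the reads per length of Snx27, which recycles receptors with PDZ ligands and had 9.17 (8.0 to 10.5). Snx17, the adaptor for LRP1 and integrins, had 5.54 (4.59 to 6.60). Of the other nexins with a BAR domain, which senses curved membrane, Snx4 had 35.6 (33.1 to 38.4), Snx9 of clathrin-coated pits 31.4 (29.3 to 33.6), Snx7 13.1 (11.6 to 14.8), Snx8 5.85 (4.88 to 6.99) and Snx30 3.71 (2.93 to 4.61). Snx7 and Snx30 each pair with Snx4 and differed by 3.88 (2.92 to 5.21) times.

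The nexins with RGS and PXA domains, some of which sit on the endoplasmic reticulum, covered a steep range. Snx14 had 13.9 (12.8 to 15.1), Snx13 4.27 (3.69 to 4.93) and Snx25 0.856. Reads per length of Snx14 were 3.36 (2.83 to 4.0) times those of Snx13, and those of Snx13 were 6.34 (4.12 to 10.2) times those of Snx25. Among the remaining nexins Snx10, a small protein of endosomes, had 64.2 (58.9 to 69.8), 24.9 (17.1 to 37.6) times the reads per length of its relative Snx11, which had 3.24 (2.40 to 4.34). Snx24 had 6.45 (4.88 to 8.50), Snx29 4.19 (3.57 to 4.90) and Snx21 3.39 (2.62 to 4.37). For Snx9, Snx13 and Snx29 the deposited length did not match the annotation used here, and Vamp7 and Chmp1b were not matched, so the densities of these 5 genes rest on the authors' length alone.

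ESCRT-III subunits, whose filaments cut vesicles free, had 5 lines of 10 symbols listed. All 5 were in the top 25% of all genes, with a median of 69.5. Chmp1a had 91.4 (84.9 to 98.2), Chmp5 86.5 (80.6 to 92.7), Chmp4b, the main filament former, 69.5 (64.2 to 75), Chmp1b 46.6 (42.1 to 51.5) and Chmp2b 44.1 (39.9 to 48.8). Chmp1a gave 1.98 (1.74 to 2.25) times the reads per length of Chmp1b. Both Chmp1 genes together stood 3.13 (2.78 to 3.52) times above Chmp2b, the only Chmp2 gene with a line. With Chmp1a alone the ratio was 2.07. Vps4b, the ATPase that takes the filaments apart, had 37.2 (34.5 to 40.0).

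The earlier ESCRT complexes were uneven. In ESCRT-I, which binds ubiquitinated cargo, Vps28 had 122 (115 to 130). It was 3.77 (3.40 to 4.19) times above Vps37a and Vps37c, the Vps37 genes with a line, together. These had 22.5 (20.3 to 24.8) and 9.96 (8.51 to 11.7), and a ratio of reads per length of 2.33 (1.92 to 2.84). In ESCRT-II Vps25 had 120 (113 to 129), 8.42 (7.27 to 9.78) times the 14.3 (12.6 to 16.2) of Vps36. Each ESCRT-II complex holds 2 copies of Vps25 for 1 of Vps36. Tsg101, the ubiquitin-binding subunit of ESCRT-I, had 20.0 and Snf8 of ESCRT-II 24.6, both outside the rule. Vps25 and Vps28 were the shortest of the ESCRT-I and ESCRT-II genes with a line, at 471 and 606 bases.

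Tethering complexes had medians of 12.8 (HOPS and CORVET, 3 of 7 listed genes with a line) and 8.49 (GARP, 4 of 4). The median of ESCRT-I and ESCRT-II was 22.5 (5 of 7). In HOPS and CORVET, which dock vesicles at late and early endosomes, Vps33a had 18.8 (17.2 to 20.5) and Vps16 12.8 (11.7 to 14). Vps8, found in CORVET, had 3.51 (3.07 to 3.98). These genes with a line spanned 5.37 (4.56 to 6.33) times. In GARP, the tether for vesicles that return to the trans-Golgi network, Vps53 had 18.7 (17.4 to 20.2), Vps52 10.3 (9.23 to 11.5), Vps51 6.68 (5.85 to 7.57) and Vps54 2.56 (2.12 to 3.06). Vps53 exceeded Vps54 by 7.33 (5.95 to 9.10) times. Vps51, Vps52 and Vps53 also belong to the EARP complex, whereas Vps54 is found in GARP alone.

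Vps13 genes, which encode long channels that carry lipids between membranes, had 3 lines of 4 symbols listed. These 3 showed how level and density can part. Vps13c and Vps13b had log2 CPM of 6.30 and 6.09, and Vps13a 4.87, so that all 3 lay above the median level of all genes. Their coding lengths ran from 9441 to 11922 bases, and per kilobase they had 7.03 (6.64 to 7.44), 5.73 (5.39 to 6.09) and 3.10 (2.82 to 3.40) CPM, all below the median density. Reads per length of Vps13c were 1.23 (1.13 to 1.34) times those of Vps13b, which were 1.87 (1.67 to 2.09) times those of Vps13a.

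Of the last Vps genes, Vps45, a partner of syntaxins at the trans-Golgi network, had 9.70 (8.56 to 11). Vps72, which in spite of its name belongs to a chromatin remodelling complex, had 6.47 (5.30 to 7.77).

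**Figure D3:**
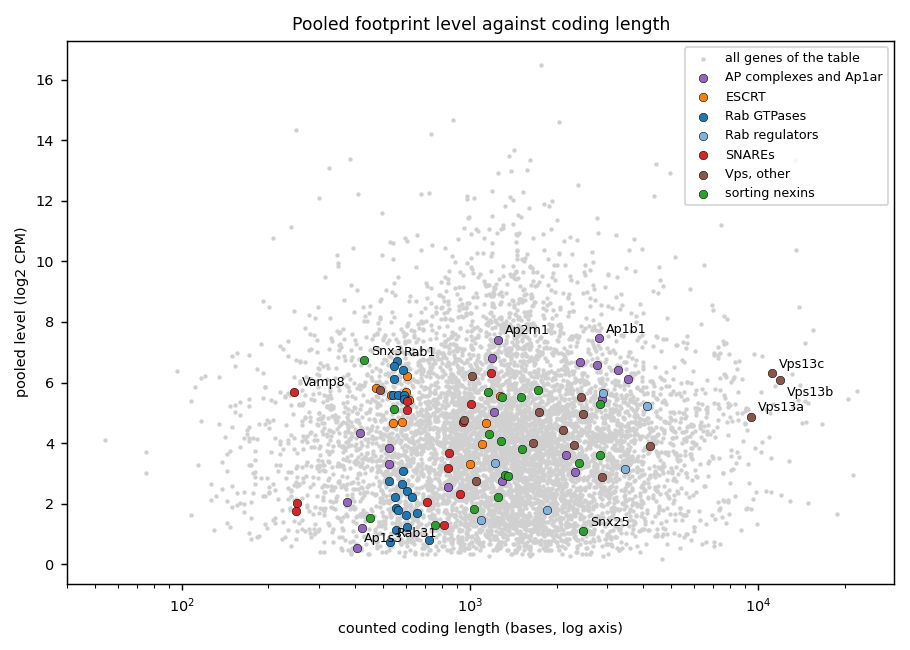
Pooled level (log2 CPM) against counted coding length (bases, log axis) of the 105 genes, coloured by family, over all 7500 genes in grey. The Rab GTPases stand in a column between 525 and 720 bases, and the Vps13 genes lie far to the right at log2 CPM of 4.87 to 6.30.

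Across the 41 pairs of related genes that were compared, 4 had a counting interval that included 1: Ap1s2 with Ap1s3, Vamp3 with Vamp5, Snap23 with Snap47 and Stx6 with Stx16. In the other 37 the reads per length differed beyond counting error, by between 1.08 times for Rab1 over Rab1b and 28.1 times for Snx3 over Snx27. The interval of Rab1 over Rab1b began at 1.001. The ratios were not corrected for windows matching another gene, which were 9.64% in Rab1 and 10.6% in Rab1b. Whether the differences of the 37 pairs exceed the spread between mice was not tested.

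**Figure D4:**
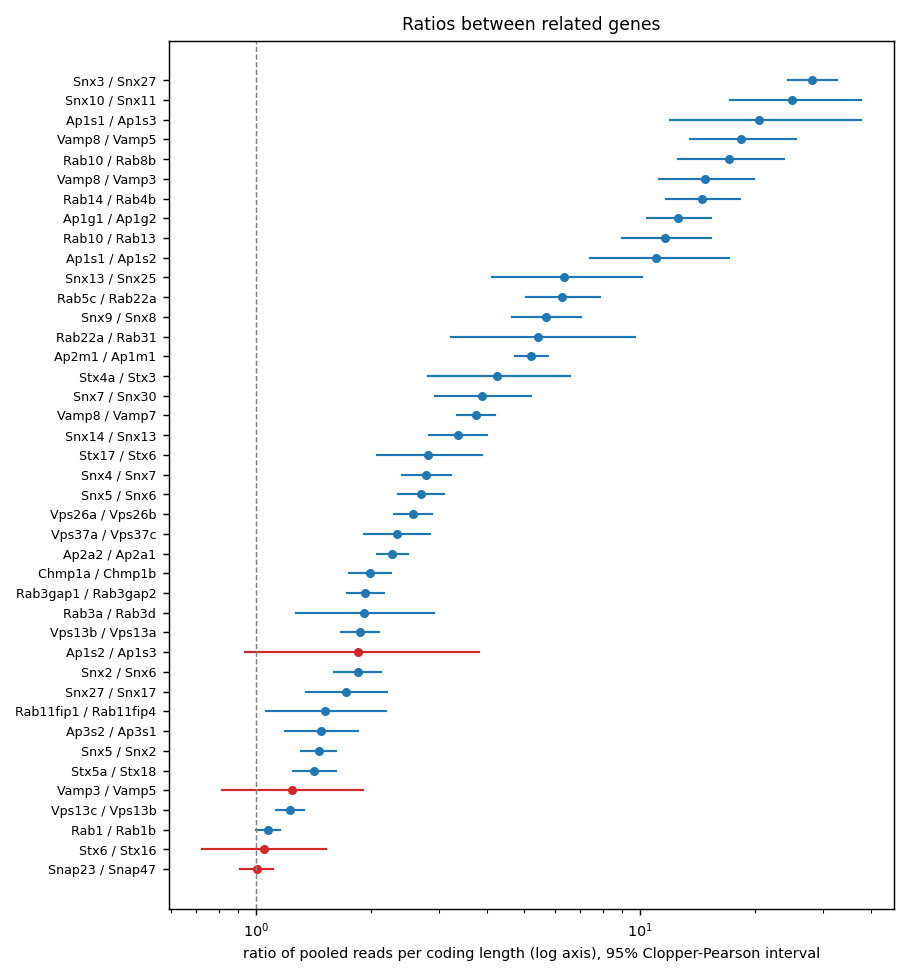
Ratio of pooled reads per coding length between 41 pairs of related genes (log axis), with 95% Clopper-Pearson intervals. Red marks the 4 pairs whose interval includes 1, which the dashed line marks, and the highest ratios are those of Snx3 over Snx27, Snx10 over Snx11 and Ap1s1 over Ap1s3.

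Coats and cargo outside the rule complete the route. Of 17 symbols for clathrin and ESCRT partners 11 had a line, with a median of 20.0 CPM per kilobase. The clathrin light chains Clta and Cltb had 122 and 75.2, Ist1, which binds ESCRT-III, 78.7 and Picalm, a clathrin assembly protein, 35.4. The receptors that travel on this machinery were translated far more. Of 12 symbols 11 had a line, their median density was 98.7 and they took 0.564% of all footprints counted. Asgr1 and Asgr2, the asialoglycoprotein receptor, had 812 and 407, Pigr, which carries IgA into bile, 536 and Lrp1 98.7, while Sort1 and Tfrc had 11 and 11.3.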

How the data were processed

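Footprints of about 30 nt were isolated from liver with RNase I and sequenced on an Illumina HiSeq. Per the methods of the study, the authors trimmed adapters with FASTX, removed rRNA reads with Bowtie, aligned the rest to the longest RefSeq isoform (mm9) and counted unique reads with at most 2 mismatches, without the first 15 and last 3 codons. The authors put genes above 1 CPM in 3 or more samples into edgeR. How both libraries of a mouse were combined, as well as each tool version, is not given in the sources used here. Deposited by the authors were a log2 CPM for each gene, their average over all libraries, and a coding length in bases. The other 4 numeric columns hold the authors' comparison of the diets (log2 fold change, linear fold change, p-value and adjusted p-value) and were not used. Since no counts per library were at hand, the planned diet comparison was not run. The basis on which lines entered the table was not examined. They sum to 857014 CPM, or 85.7% of 1000000, so a gene without a line need not be low.

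CPM was 2 to the power of the log2 CPM. The deposited length was 60 bases below the coding sequence for 97.7% of the genes matched by symbol to GENCODE M1 (NCBIM37, which is mm9), and for 100 of the 105 described here, so it was used as it stands. All 401 genes under 2 CPM lay within 0.25 read of a whole multiple of 0.0661 CPM. Reads were these multiples less 8, taken as what the authors' edgeR average adds (2 for each of 4 joined libraries). That 4 libraries entered is inferred: with 8, or 16 added counts, the lowest gene (17 multiples) would keep 1 read, against the authors' filter. With 4 it keeps 9 reads, which is also too few for that filter if the 4 libraries were equally deep. Unequal depths could allow it, but the depth of each library was not at hand, so this was not tested. Reads and ratios of reads per length rest on this choice. Density intervals are exact Poisson and ratio intervals exact Clopper-Pearson. The step search and the window search (up to 2 mismatches in 30 bases) were tested on simulated data. Lists of genes by role, and the rule for naming (each list's 3 highest and 2 lowest, the 5 highest and lowest of all, paralog pairs; further members are named for completeness), were written with earlier results of these data known, as were the members. Python 3.11.15, numpy 2.4.6, pandas 2.3.3, scipy 1.17.1, numba 0.67.0 and matplotlib 3.10.9 were used. Alternatives were other lengths, filters, a pseudocount of 1, single paralogs, and others chosen after seeing the data: subtracting the added counts (in ratios, none or those of 8 libraries), and using only windows without a match.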

Additional observations from a re-analysis of the deposited data

How the results depend on the processing

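Of 41 recomputed values, 35 were close to the value reported and 6 moved. Close meant within the counting interval for ratios of complexes and within 1.5 times for counts of genes. For medians it meant within 0.165 on the log2 scale, which is the counting error of the middle gene and not of the median. The other recomputed median levels were 4.25 and 4.38, and the other log2 density medians ran from 3.71 to 3.90. With genes of a log2 CPM of at least 3 only, 71 of the 105 were left, their median level was 5.38 (all genes 4.84) and their median density 4.83 on the log2 scale (all genes 4.51), against 4.28 and 3.80 without the filter. With the highest paralog alone in each place, the ratio of highest to lowest place was 3.97 in AP-2, 1.54 in retromer, 5.44 in ESCRT-I and 2.07 in ESCRT-III, since fewer genes were added. In the other complexes the highest and lowest place each held 1 gene with a line, so this setting could not move the ratio. Those unchanged values are among the 35. The highest and lowest places were those reported in 30 of 30 recomputations over the 10 complexes. Where every place of a complex held 1 gene with a line, the single-paralog setting could not change this order. No paired analysis was possible because no mouse number occurs in both diets and values per mouse were not used here. For the same reason leaving out a mouse, DESeq2 and other normalizations were not run, nor was the RefSeq protein length, which was not used here. Of the 41 ratios between related genes, 3 moved by over 1.5 times (those of Rab22a to Rab31 and of Ap1s1 and Ap1s2 to Ap1s3) with the counts of 8 libraries subtracted, and 1 (Ap1s1 to Ap1s3) with none subtracted. Intervals including 1 then numbered 3 in place of 4 with those of 8 libraries. Genes with few reads, such as Ap1s3 with 14, have wide intervals.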
